A study of Mus musculus with 12 samples.

Results

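Axon guidance ligands and receptors were described in mRNA from embryonic day 18 (E18) whole mouse brain. The genes were taken by symbol from the gene table and comprised the ephrins (Efn) and Eph receptors, the semaphorins (Sema) and their plexin (Plxn) and neuropilin (Nrp) receptors, the Slits and Robos, and the netrins (Ntn) with their receptors Dcc and Unc5. They were 64 of 13770 protein-coding gene models, 33 of them ligands and 31 receptors. Of the 64, 59 had a mean of at least 1 FPKM (fragments per kilobase of transcript, scaled to the mapped fragments of the library) over the 12 brains and were tested, among 12346 genes tested in all.

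The PAE (prenatal alcohol exposure) group comprised 6 brains of C57BL/6J embryos (C57BL/6 in the labels) whose dams drank an ethanol solution sweetened with saccharin for a few hours per day during mating and pregnancy. The SAC group comprised 6 brains of C57BL/6J embryos whose dams drank the saccharin solution without ethanol, so both groups were exposed to saccharin. Each group held 3 males and 3 females. The brains carry name prefixes (ES19, ES23 and ES27 in PAE, SAC12 and SAC26 in SAC). The sources used here do not say if a prefix stands for a litter. Each brain was treated as an independent sample, and a p-value therefore measures no more than the spread among these 12 brains.

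Axons find their targets by reading cues that attract or repel the growth cone at their tip. Ephrins are membrane-bound ligands of the Eph receptor tyrosine kinases and can also signal back into the cell that carries them. Most semaphorins act through plexins, the secreted ones often together with neuropilins. Netrin attracts axons through Dcc and repels them through the Unc5 receptors, and Slits repel axons through Robos. Late in gestation many long tracts of the mouse brain, among them the commissures and the thalamocortical projection, are being laid down, and several of these families also act in neuronal migration and in blood vessels.

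Every one of the 64 genes was detected in every brain, and mean levels over the 12 brains ranged between 0.658 FPKM for Sema3b, a secreted semaphorin, and 38.3 FPKM for Efnb2, a transmembrane ephrin. FPKM are per length, so levels may be set side by side between genes, but the gene and transcript values of a gene can differ widely. Nrp1 averaged 10.7 FPKM as a gene and 28.3 FPKM as its 1 listed transcript. Sema4g averaged 26.8 FPKM as a gene and 9.92 FPKM as its highest listed transcript, and Epha4 averaged 20.5 and 1.87 FPKM in the same order. The orders given here are those of the gene values only, and transcript values would order some genes otherwise. Among ephrins the 2 highest were Efnb2 and Efnb3 (37.9 ± 1.69 FPKM, SD, n = 12), whose ranges of mean ± SD overlapped, and the lowest was Efna1 at 1.97 ± 0.301 FPKM. Epha4 (20.5 ± 2.51 FPKM) and Ephb1 (17.5 ± 2.03 FPKM) led the Eph receptors, again with overlapping ranges, and Ephb3 was lowest at 1.39 ± 0.207 FPKM.

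Sema4g, a transmembrane semaphorin, had 26.8 ± 1.79 FPKM and stood clear of the next semaphorin, the membrane-anchored Sema7a, at 15.3 ± 1.58 FPKM. All 10 plexins and neuropilins lay between 10.7 ± 0.975 FPKM (Nrp1, a co-receptor of secreted semaphorins) and 30.6 ± 3.47 FPKM (Plxna1), with Plxnb2 at 24.4 ± 1.24 FPKM. Robo1 (32.7 ± 1.94 FPKM) and Robo2 (16.5 ± 1.03 FPKM) were far above the Slits, of which Slit1 was highest at 9.22 ± 0.698 FPKM. In the netrin family the repulsive receptors Unc5a (9.89 ± 0.906 FPKM) and Unc5d (6.75 ± 0.396 FPKM) were highest, and Unc5c was lowest at 2.05 ± 0.464 FPKM. Of 58 pairs of neighbours in the order of levels within families, 39 had overlapping ranges of mean ± SD.

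5 genes stayed under the level for testing. Sema3b averaged 0.586 ± 0.165 FPKM in PAE and 0.730 ± 0.176 FPKM in SAC (SD, n = 6 each). Sema3d averaged 0.800 ± 0.181 FPKM in PAE and 0.934 ± 0.109 FPKM in SAC, and Sema3g, another secreted semaphorin, averaged 0.873 ± 0.162 FPKM in PAE and 0.810 ± 0.144 FPKM in SAC. Robo3, a receptor of commissural axons, averaged 0.802 ± 0.322 FPKM in PAE and 0.814 ± 0.163 FPKM in SAC, and Robo4, a receptor of endothelial cells, averaged 0.750 ± 0.179 FPKM in PAE and 0.875 ± 0.157 FPKM in SAC. Their groups overlapped.

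**Figure D1:**
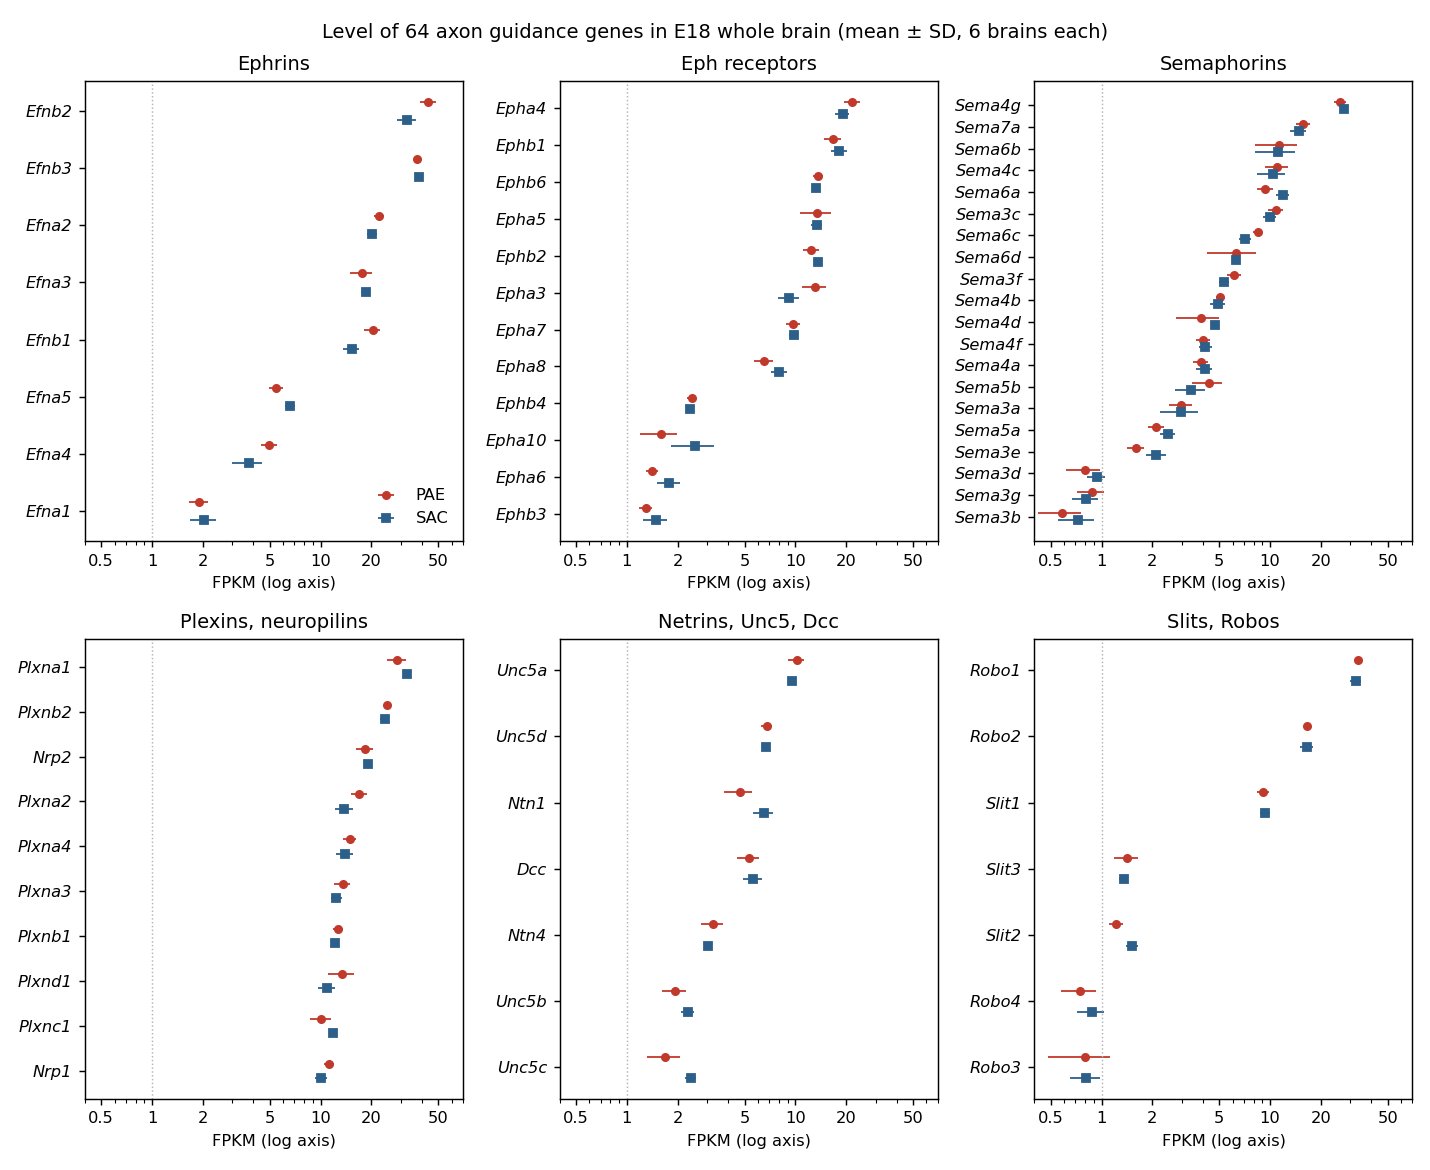
Mean level of each of the 64 genes in PAE (red circles) and SAC (blue squares) E18 whole brain, in FPKM on a log axis, with bars of ± 1 SD over 6 brains. Levels run between 0.586 FPKM (Sema3b in PAE) and 43.7 FPKM (Efnb2 in PAE), and PAE and SAC lie close together for most genes.

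In PAE vs. SAC E18 whole brain, 5 of the 59 genes were upregulated and 5 were downregulated at an adjusted p under 0.05. The upregulated genes were the ephrins Efnb1, Efnb2 and Efna4, the receptor Epha3 and the semaphorin Sema6c, and the downregulated genes were the ephrin Efna5, the semaphorins Sema3e and Sema6a, the netrin Ntn1 and its receptor Unc5c. Of all 12346 genes tested, 9.56% passed the same threshold, 4.34% upregulated and 5.22% downregulated. At an unadjusted p under 0.05, 25 of the 59 genes differed, 12 upward and 13 downward, against 28.5% of all genes. The median log2 fold change was 0.0066 over the 59 genes and 0.0052 over all genes tested. All log2 fold changes are PAE over SAC on the log2(FPKM + 1) scale, which understates the change of genes with low values.

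By family, 4 of 8 ephrins passed (3 up, 1 down), against 1 of 12 Eph receptors (up), 3 of 17 semaphorins (1 up, 2 down), 2 of 7 genes of the netrin family (both down), none of 10 plexins and neuropilins and none of 5 Slits and Robos. Ligands accounted for 8 of the 10 calls (26.7% of the 30 tested), and receptors for the other 2 (6.9% of the 29 tested). The counts by family and by role stand beside 9.56% of all genes tested, and no test of these splits was run. No gene reached a 1.5-fold change with an unadjusted p under 0.05 on this scale, the size threshold used in the study, which 0.996% of all genes passed. With the fold taken from mean FPKM instead, 2% of all genes passed and Epha10 was the only 1 of the 59.

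**Figure D2:**
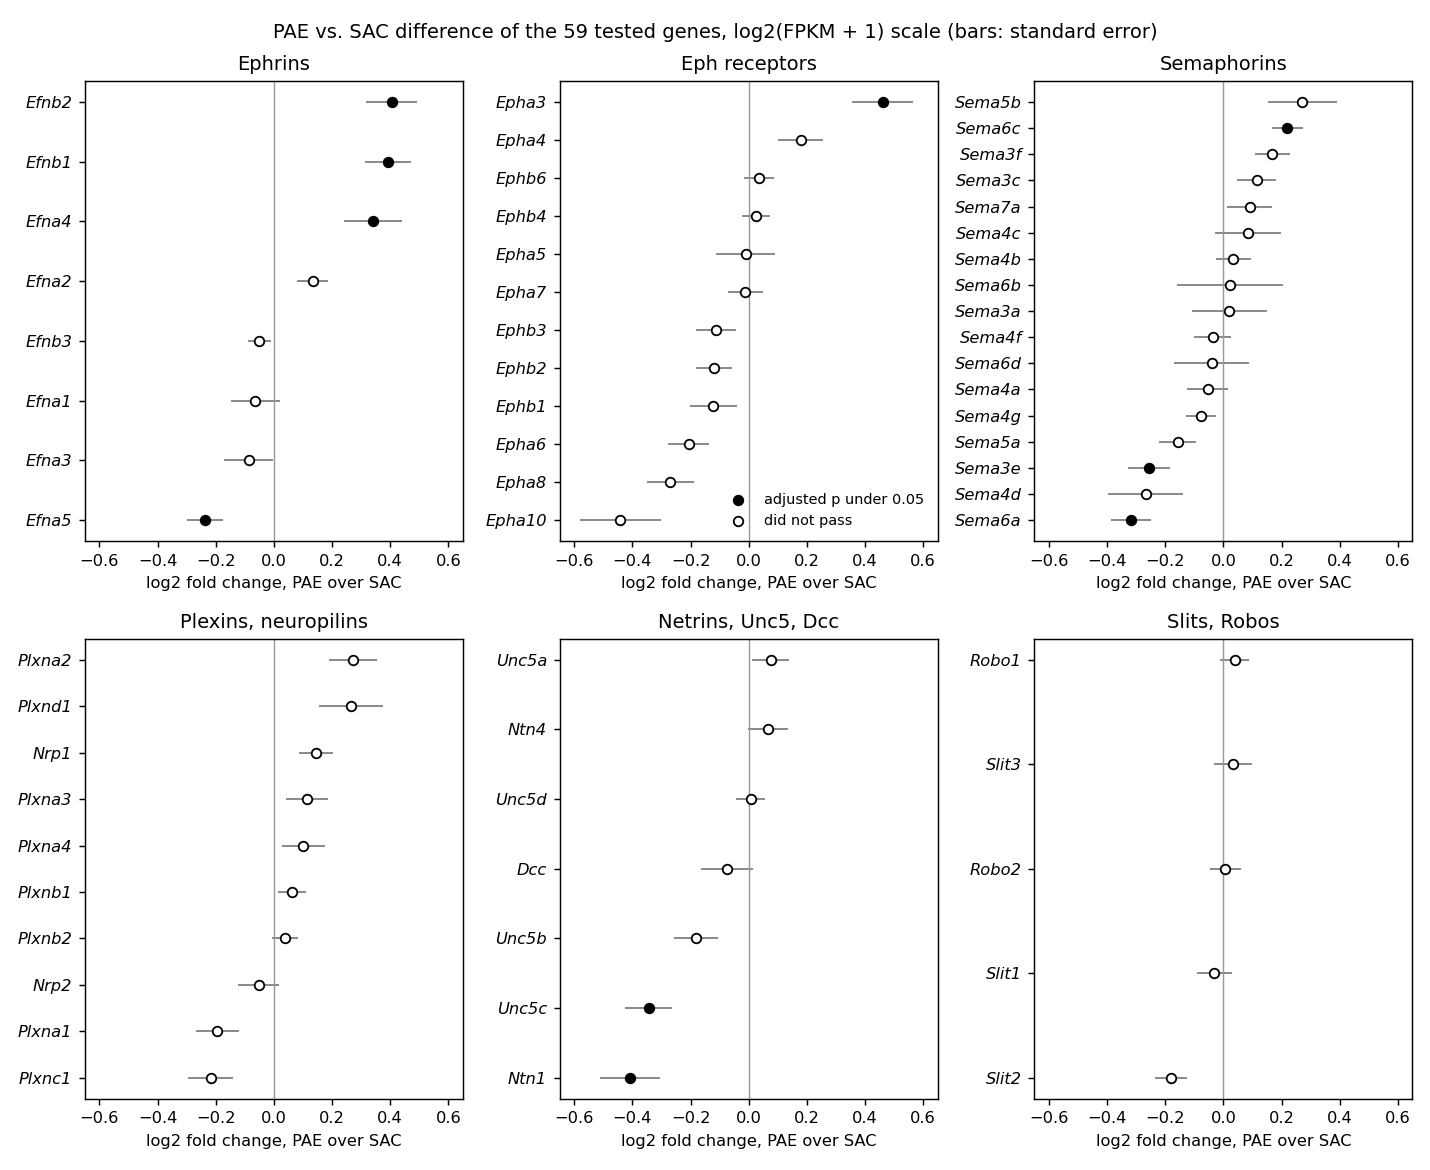
Log2 fold change of PAE over SAC for the 59 tested genes on the log2(FPKM + 1) scale, by family, with bars of ± 1 standard error; filled circles passed an adjusted p under 0.05 and open circles did not. The 10 filled circles lie between -0.41 (Ntn1) and 0.46 (Epha3), and the open circle farthest from 0 is Epha10 at -0.44.

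The brains also differed in regional markers, which the PAE vs. SAC fit did not take into account. The part of these markers in the differences below was not tested, apart from the fits with the Hox level and without ES19-4 and SAC12-6. The mean of 15 Hox genes, which mark hindbrain and spinal cord, was 4.32 FPKM in the PAE brain ES19-4 and 0.0032 to 0.0119 FPKM in the other 5 PAE brains, against 0.0309 FPKM in the SAC brain SAC12-6 and 1.72 to 4.82 FPKM in the other 5 SAC brains. In the 5 low PAE brains 10 to 13 of the 15 were listed at 0, and in SAC12-6 9 were. The summed level of 9 cortical excitatory neuron markers was 391 to 555 FPKM in PAE and 253 to 406 FPKM in SAC, with 7 of 9 upregulated at an adjusted p under 0.05. That of 12 brainstem and cerebellum markers was 3.96 to 36.03 FPKM in PAE and 25.1 to 52.2 FPKM in SAC, with 6 of 9 tested downregulated and up to 4 of 12 listed at 0 in a PAE brain. Sums of 8 astrocyte markers were 228 to 424 FPKM in PAE and 389 to 491 FPKM in SAC (4 of 8 downregulated), those of 8 thalamus and habenula markers 56.8 to 97.6 FPKM in PAE and 91.9 to 115 FPKM in SAC (2 of 8 downregulated), and those of 7 oligodendrocyte lineage markers 41.5 to 60.3 FPKM in PAE and 55.4 to 70.4 FPKM in SAC (3 of 6 tested downregulated). Sums of 8 striatum markers overlapped, at 56.1 to 81.8 FPKM in PAE and 66.1 to 80.1 FPKM in SAC, with 3 of 8 upregulated. Of these 8 markers, 7 had positive log2 fold changes, and 1 had a negative one (-0.67) at an unadjusted p under 0.05. The PAE brain ES27-4 stood apart in 10 endothelial markers (65.4 FPKM, 92.3 to 102 FPKM in the rest of PAE and 91.2 to 97.1 FPKM in SAC), 8 markers of meninges and fibroblasts (22.3 FPKM, 42.7 to 57.7 and 39.0 to 62.8 FPKM) and 6 microglia markers (12.4 FPKM, 22.2 to 24.6 and 19.3 to 23.2 FPKM), of which 1 endothelial marker was downregulated and none was upregulated. 6 markers of neurons in general had sums of 740 to 802 FPKM in PAE and 749 to 780 FPKM in SAC, and none passed. Of these 6 markers, 5 had negative log2 fold changes and 1 had a positive one, with 2 lower and 1 higher at an unadjusted p under 0.05. In bulk tissue, fewer cells of a type and less RNA per cell cannot be told apart, and the treatment and the regional make-up of the brains cannot be told apart beyond ES19-4 and SAC12-6.

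Of the 3 B-class ephrins, Efnb1 and Efnb2 were upregulated and Efnb3 did not pass. Efnb1, a transmembrane ephrin encoded on the X chromosome (chrX:99136130-99148991, + strand, GRCm38), ranged between 18.2 and 24.6 FPKM in PAE (median 19.6) and between 13.2 and 17.2 FPKM in SAC (median 15.4). Every PAE brain lay above every SAC brain. The mean was 1.33-fold higher in PAE, and the log2 fold change was 0.39 ± 0.08 (SE) with an adjusted p of 0.0203 (limma).

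Efnb2, the highest of all 64 genes and also known as a marker of arterial endothelium (chr8:8617434-8661242, - strand), ranged between 38.5 and 51.8 FPKM in PAE (median 41.8) and between 27.6 and 39.2 FPKM in SAC (median 32.2). The groups overlapped only through the lowest PAE brain, ES19-4, and the highest SAC brain, SAC26-5. The log2 fold change was 0.41 ± 0.0871 with an adjusted p of 0.0222. The sum of endothelial markers was lowest in ES27-4, which had 41.6 FPKM of Efnb2. The part of endothelial cells in the Efnb2 difference was not tested. Efnb3, a ligand of the midline, had nearly the level of Efnb2 but a log2 fold change of -0.05 ± 0.0386 (adjusted p = 0.419).

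The A-class ephrins, which are tethered to the membrane by a lipid anchor, went both ways. Efna4 (chr3:89333390-89338028, - strand) ranged between 4.24 and 5.70 FPKM in PAE (median 4.80) and between 2.98 and 4.68 FPKM in SAC (median 3.57). The 2 highest SAC brains, SAC12-6 and SAC26-5, reached into the PAE range, and the log2 fold change was 0.34 ± 0.0994 (adjusted p = 0.0473). Its exons overlap those of an antisense gene model, 4731419I09Rik, and the sources used here do not say if reads were assigned by strand, so its value is uncertain to that extent.

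Efna5, known for its part in topographic maps such as the retinocollicular one (chr17:62604184-62881317, - strand), ranged between 4.75 and 6.196 FPKM in PAE (median 5.42) and between 5.90 and 7.19 FPKM in SAC (median 6.73). Only ES19-4 and ES23-4 in PAE lay above the lowest SAC brain, and the log2 fold change was -0.24 ± 0.062 (adjusted p = 0.0353). The remaining A ephrins did not pass. Efna2, which was higher in PAE at an unadjusted p of 0.0253, had a log2 fold change of 0.13 ± 0.0531.

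Because 4 of the 8 ephrins passed, 3 of them in 1 direction and Efna5 in the other, the promoter windows of these 4 are shown, 250 bases before to 50 after the RefSeq start (GRCm38.p6), 5′ to 3′ on the gene's strand. Capitals mark exact matches, on either strand, to the GC box GGGCGG or the TATA box TATAAA. The windows are chrX:99135811-99136110 (+) for Efnb1, chr8:8661193-8661492 (-) for Efnb2, chr3:89337979-89338278 (-) for Efna4 and chr17:62881268-62881567 (-) for Efna5.
Efnb1: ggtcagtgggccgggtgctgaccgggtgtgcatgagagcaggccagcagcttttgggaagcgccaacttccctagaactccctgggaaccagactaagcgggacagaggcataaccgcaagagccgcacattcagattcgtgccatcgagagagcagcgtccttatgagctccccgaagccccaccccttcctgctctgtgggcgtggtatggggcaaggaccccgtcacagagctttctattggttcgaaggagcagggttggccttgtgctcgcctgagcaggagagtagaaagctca
Efnb2: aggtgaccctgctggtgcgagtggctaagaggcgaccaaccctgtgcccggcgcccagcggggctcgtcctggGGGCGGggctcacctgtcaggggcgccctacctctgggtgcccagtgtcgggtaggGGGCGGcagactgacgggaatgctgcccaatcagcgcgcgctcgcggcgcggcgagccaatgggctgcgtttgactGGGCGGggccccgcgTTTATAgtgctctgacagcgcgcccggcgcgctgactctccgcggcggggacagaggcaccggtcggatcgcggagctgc
Efna4: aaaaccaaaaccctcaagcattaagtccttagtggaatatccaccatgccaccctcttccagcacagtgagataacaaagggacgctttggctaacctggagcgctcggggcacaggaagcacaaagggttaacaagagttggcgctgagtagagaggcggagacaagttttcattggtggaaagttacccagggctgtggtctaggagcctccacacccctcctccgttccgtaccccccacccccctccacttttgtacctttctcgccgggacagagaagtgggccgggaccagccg
Efna5: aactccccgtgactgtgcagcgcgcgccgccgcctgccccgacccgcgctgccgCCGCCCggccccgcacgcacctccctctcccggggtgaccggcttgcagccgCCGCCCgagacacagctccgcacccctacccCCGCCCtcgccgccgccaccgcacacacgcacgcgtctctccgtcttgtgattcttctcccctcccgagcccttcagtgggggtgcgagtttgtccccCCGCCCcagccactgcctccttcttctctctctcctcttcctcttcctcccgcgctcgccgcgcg
Efnb2 and Efna5 had windows with 72.3% and 73.3% GC and 35 and 38 CpG, and Efnb1 and Efna4 had windows with 59.7% and 55.7% GC and 14 and 11 CpG, beside a median of 52.7% GC over 32851 windows of the same length. A GC box was found 3 times in Efnb2 and 4 times in Efna5 and not in Efnb1 or Efna4, a TATA box was found only in Efnb2 among the 4, and the neuronal E-box CAGATG was found in none. In windows of 54 of the 64 genes that matched the RefSeq table, 39 held the GC box (72.2%), 2 the TATA box (3.7%) and 4 the E-box (7.41%). Over all 32851 windows the shares were 35.7%, 13.6% and 17.2% in the same order. The 2 sets are unlike, because each of the 54 genes had 1 window, the one nearest the start of its highest transcript. The 32851 windows were taken without such a choice. The 3 upregulated ephrins had none of these motifs in common, which describes the letters of these windows only. The RefSeq start of Efnb1 lies 69 bases from the start of Efnb1-201, and those of the other 3 coincide with the start of their highest transcript.

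**Figure D3:**
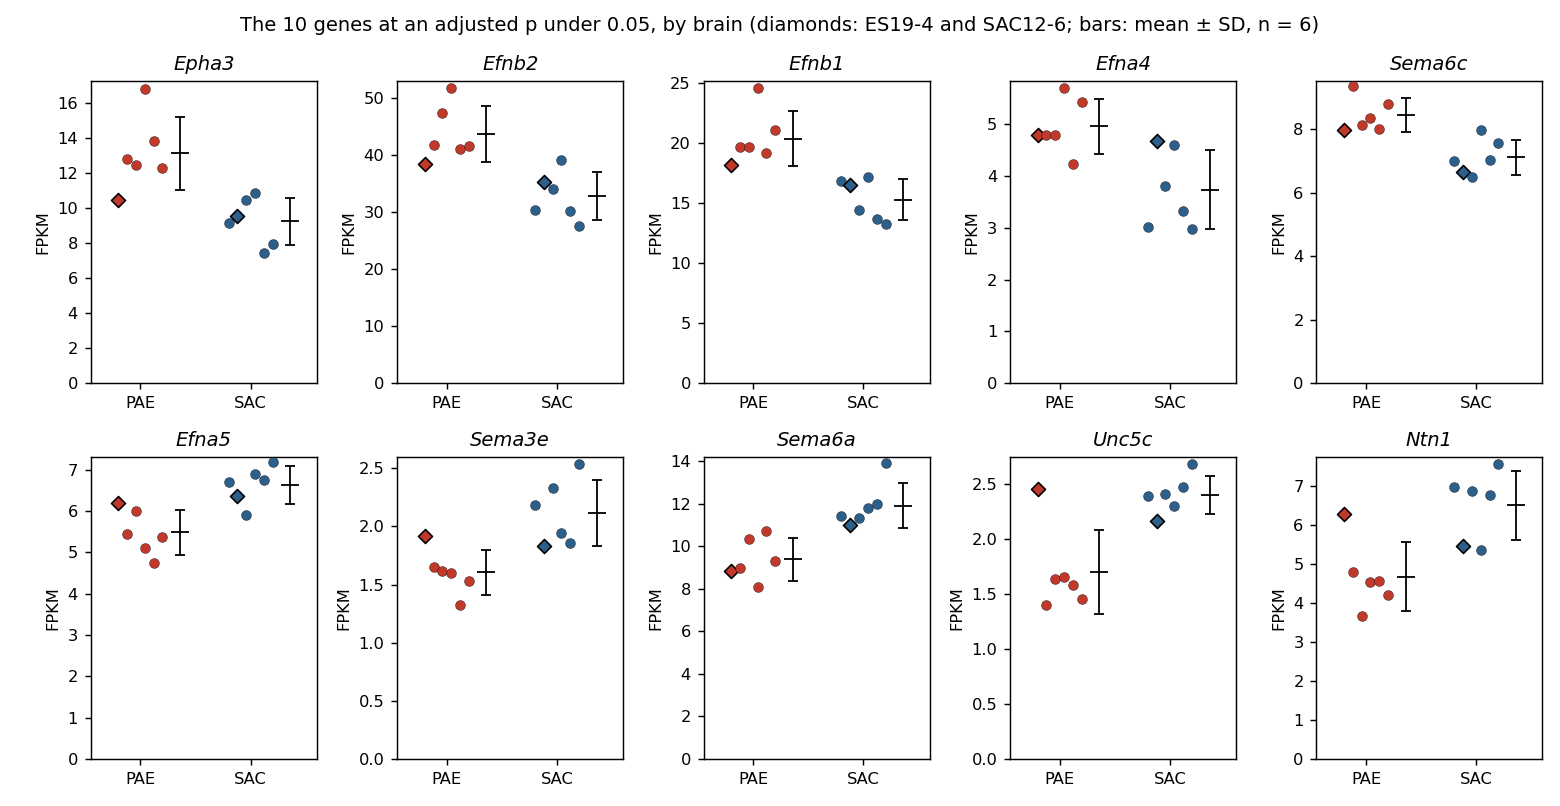
FPKM of the 10 genes at an adjusted p under 0.05 in each brain, PAE (red) left and SAC (blue) right, with the mean ± SD beside each group (n = 6); diamonds are ES19-4 and SAC12-6. Efnb1, Sema6c and Sema6a have no overlap between groups. For Efnb2, Epha3, Efna5, Sema3e, Unc5c and Ntn1 the ES19-4 diamond lies within the SAC range.

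Among the Eph receptors, the partners of the ephrins, Epha3 alone passed. Epha3, a receptor of A-class ephrins (chr16:63543538-63864158, - strand), ranged between 10.5 and 16.8 FPKM in PAE (median 12.6) and between 7.46 and 10.8 FPKM in SAC (median 9.37). All PAE brains but ES19-4 lay above all SAC brains. Its log2 fold change of 0.46 ± 0.105 was the largest rise of the 59 genes on the log2(FPKM + 1) scale (adjusted p = 0.0252), and its mean was 1.42-fold higher in PAE.

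Epha8, Epha10 and Epha6 were lower in PAE at an unadjusted p under 0.05 and did not pass the adjustment. Epha8, another receptor of A-class ephrins, ranged between 5.32 and 7.83 FPKM in PAE (median 6.63) and between 6.97 and 9.74 FPKM in SAC (median 7.95), with a log2 fold change of -0.27 ± 0.0822 and an adjusted p of 0.0553. Epha10, which lacks kinase activity, ranged between 0.889 and 2.02 FPKM in PAE (median 1.61) and between 1.73 and 3.75 FPKM in SAC (median 2.28), and its log2 fold change was -0.44 ± 0.138 (adjusted p = 0.060). Its ratio of mean FPKM, 0.627, was the lowest of the 59 genes, and it also had the widest spread over the 12 brains, a coefficient of variation of 36.2%. Epha10 exons overlap those of an antisense gene model, 1700125G02Rik, so its value is uncertain in the same way as that of Efna4. Epha6 had a log2 fold change of -0.21 ± 0.0706 (adjusted p = 0.0789). Of the highest receptors, Epha4 averaged 21.8 ± 2.48 FPKM in PAE and 19.1 ± 1.83 FPKM in SAC (adjusted p = 0.145), and Ephb1 averaged 16.7 ± 1.93 FPKM in PAE and 18.2 ± 1.97 FPKM in SAC (adjusted p = 0.347). None of the 5 Ephb receptors had an unadjusted p under 0.05.

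The semaphorins that passed came from the transmembrane class 6 and the secreted class 3. Sema6a (chr18:47235598-47368870, - strand), a ligand of Plxna2 and Plxna4, ranged between 8.07 and 10.7 FPKM in PAE (median 9.15) and between 11.03 and 13.9 FPKM in SAC (median 11.6). Every PAE brain lay below every SAC brain, including ES19-4 at 8.83 FPKM and SAC12-6 at 11.03 FPKM. The log2 fold change was -0.32 ± 0.0693 (adjusted p = 0.0232). Sema6c (chr3:95160457-95174024, + strand) went the other way, between 7.98 and 9.37 FPKM in PAE (median 8.26) and between 6.48 and 7.96 FPKM in SAC (median 7.01). Its groups did not overlap, though the nearest brains, ES19-4 in PAE (7.98 FPKM) and SAC26-5 in SAC (7.96 FPKM), differed by little. The log2 fold change was 0.22 ± 0.0547 (adjusted p = 0.0309).

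Sema3e, a secreted semaphorin that binds Plxnd1 without a neuropilin (chr5:14025276-14256689, + strand), ranged between 1.32 and 1.92 FPKM in PAE (median 1.61) and between 1.83 and 2.54 FPKM in SAC (median 2.06). ES19-4 was the 1 PAE brain above the lowest SAC brain, SAC12-6, and the log2 fold change was -0.26 ± 0.0717 (adjusted p = 0.0422). Of the other 14 tested semaphorins, Sema3f and Sema5b were higher and Sema5a was lower at an unadjusted p under 0.05. Class 4, the largest membrane class, had no member at that level, and its highest member, Sema4g, had a log2 fold change of -0.08 ± 0.0529.

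Of the semaphorin receptors, 3 were higher (Plxna2, Plxnd1 and Nrp1) and 2 were lower (Plxna1 and Plxnc1) at an unadjusted p under 0.05, and none passed the adjustment. Plxna2 came nearest, with 14.6 to 19.96 FPKM in PAE (median 16.8) and 12.01 to 15.8 FPKM in SAC (median 14.0), a log2 fold change of 0.27 ± 0.082 and an adjusted p of 0.0527. In SAC, 3 brains lay above the lowest PAE brain. Plxna2 and its ligand Sema6a had values of opposite sign, as did Plxnd1 (0.26 ± 0.110) and its ligand Sema3e, of which only the ligands passed. These pairs were picked after their values were seen. Of the 59 genes, 30 had positive and 29 had negative values, and Ntn1 and its receptor Unc5c had values of the same sign.

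In the netrin family Ntn1 and Unc5c passed and Dcc did not. Ntn1, the secreted netrin of the floor plate and ventricular zone (chr11:68209364-68400823, - strand), had 6.29 FPKM in ES19-4 and 3.67 to 4.80 FPKM in the other 5 PAE brains, against 5.37 to 7.56 FPKM in SAC (median 6.82). The log2 fold change was -0.41 ± 0.103 with an adjusted p of 0.0328. Unc5c, a repulsive netrin receptor known for its part in cerebellar development (chr3:141465216-141834924, + strand), had 2.45 FPKM in ES19-4 and 1.40 to 1.65 FPKM in the other 5 PAE brains, against 2.16 to 2.68 FPKM in SAC (median 2.39). Its log2 fold change was -0.34 ± 0.0817 (adjusted p = 0.0274). For both genes, as for Efnb2, Epha3 and Sema3e, the only PAE brain within the SAC range was ES19-4, the PAE brain with Hox expression. SAC12-6, the SAC brain nearly without it, had the lowest Unc5c of the SAC brains (2.16 FPKM) and the second lowest Ntn1 (5.47 FPKM), still above the other 5 PAE brains in both. Unc5c exons overlap those of an antisense gene model, Gm15688.

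Dcc, the attractive netrin receptor, averaged 5.31 ± 0.785 FPKM in PAE and 5.63 ± 0.717 FPKM in SAC, with a log2 fold change of -0.07 ± 0.0908 (adjusted p = 0.625). Unc5b, which also acts in blood vessels, had a log2 fold change of -0.18 ± 0.0744 (unadjusted p = 0.0299). Unc5a (0.08 ± 0.0647), Unc5d (0.01 ± 0.0499) and Ntn4 (0.07 ± 0.0693), a netrin of basement membranes, had values near 0. Slit2, a repellent of Robo-bearing axons, missed the threshold with an adjusted p of 0.0546, although every PAE brain (1.06 to 1.36 FPKM, median 1.23) lay below every SAC brain (1.37 to 1.66 FPKM, median 1.503). Its log2 fold change was -0.18 ± 0.0552. Robo1 (0.04 ± 0.0497) and Robo2 (0.01 ± 0.0523), its receptors, had values near 0.

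Over the 59 genes, 4 had no overlap between PAE and SAC brains, Efnb1 and Sema6c above and Sema6a and Slit2 below, against 4.03% of all genes tested. Without ES19-4 and SAC12-6, 10 had no overlap (Efnb1, Efnb2, Epha3 and Sema6c above, and Ntn1, Sema3e, Sema5a, Sema6a, Slit2 and Unc5c below), against 14.9% of all genes. Also without these brains 13 genes passed an adjusted p under 0.05, against 17.2% of all genes, and the log2 fold change of Unc5c was -0.44 and that of Ntn1 was -0.52. With the Hox mean, taken as log2(mean + 1), as a covariate, no gene passed, of the 59 or of all 12346. In that fit 13 of the 59 had an unadjusted p under 0.05, against 11.8% of all genes. The log2 fold changes of Sema6a (-0.30) and Sema6c (0.22) then differed little from those without the covariate, and those of the other 8 were nearer 0. They were 0.30 for Efnb1, 0.28 for Efnb2, 0.33 for Epha3, 0.21 for Efna4, -0.16 for Efna5, -0.18 for Unc5c, -0.20 for Ntn1 and -0.14 for Sema3e. The part of the regional markers in these differences was not tested further. Hox level and treatment went together in all brains but ES19-4 and SAC12-6. The fit with the Hox covariate therefore cannot tell them apart beyond these brains.

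**Figure D4:**
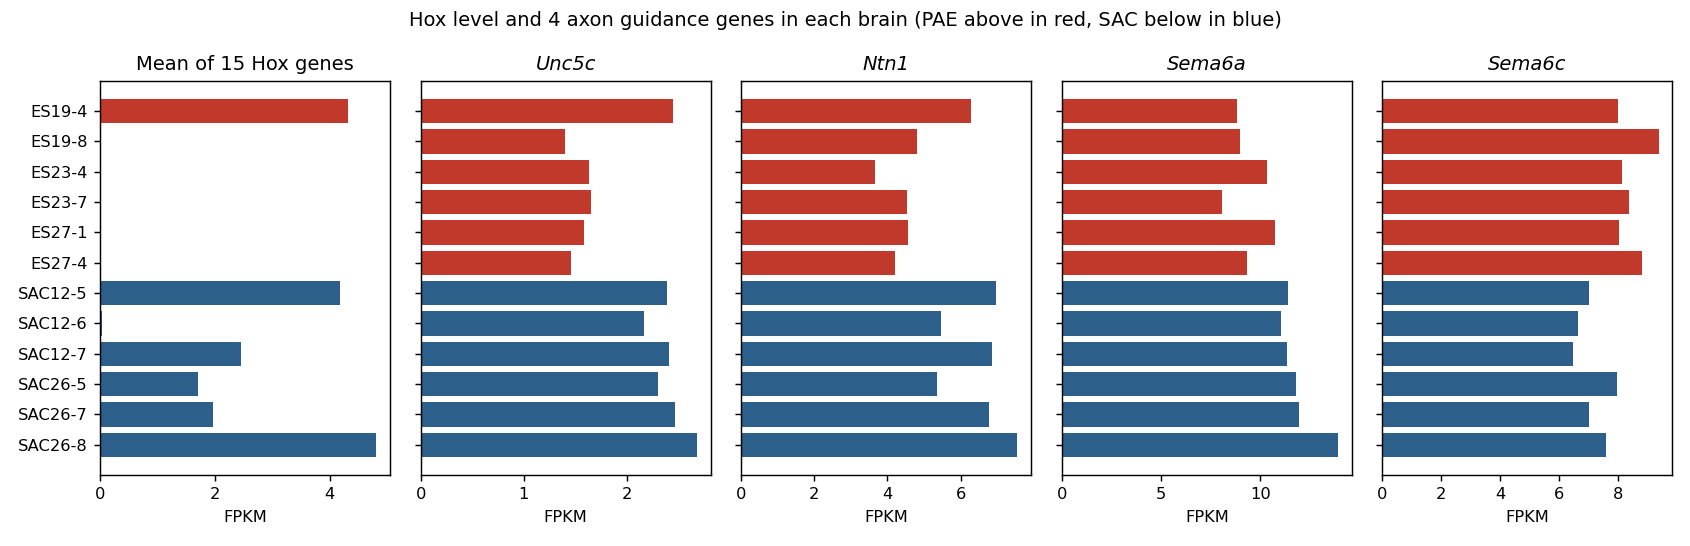
Mean FPKM of 15 Hox genes and FPKM of 4 guidance genes in each brain, 1 bar per brain with PAE (red) above and SAC (blue) below. For Unc5c and Ntn1 the bar of ES19-4 is the longest in PAE (2.45 and 6.29 FPKM), as is its Hox bar (4.32 FPKM). For Sema6a and Sema6c every PAE bar is on 1 side of every SAC bar. For Sema6c this is by little, with 7.98 FPKM in ES19-4, the lowest PAE brain, and 7.96 FPKM in SAC26-5.

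Leaving out 1 brain at a time changed the count of genes that passed between 0 (without SAC26-8) and 18 (without ES19-4, where 19.3% of all genes passed). Without SAC26-8, 1% of all genes passed, and the smallest adjusted p of the 59 was 0.0525, for Efnb1. Efnb1 passed in the other 11 cases, and Sema6a failed only without SAC26-7 (adjusted p = 0.0514) or SAC26-8 (0.0551). Efnb2 and Epha3 failed without ES23-4, SAC12-5, SAC26-7 or SAC26-8, with adjusted p values up to 0.0561 and 0.0651. Unc5c and Sema6c passed without 4 of the 12 brains and failed without 8, and Ntn1, Efna4, Efna5 and Sema3e passed without 3 and failed without 9. The log2 fold change of each of the 10 genes kept its sign without every brain in turn and ranged, for instance, between 0.34 and 0.43 for Efnb1, between -0.35 and -0.28 for Sema6a and between -0.48 and -0.35 for Ntn1. With the brains averaged within their 5 name prefixes, no gene of the 59 or of all 12346 passed, and the smallest adjusted p of the 59 was 0.212. At an unadjusted p under 0.05 there were 15 of the 59, against 16.5% of all genes.

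**Figure D5:**
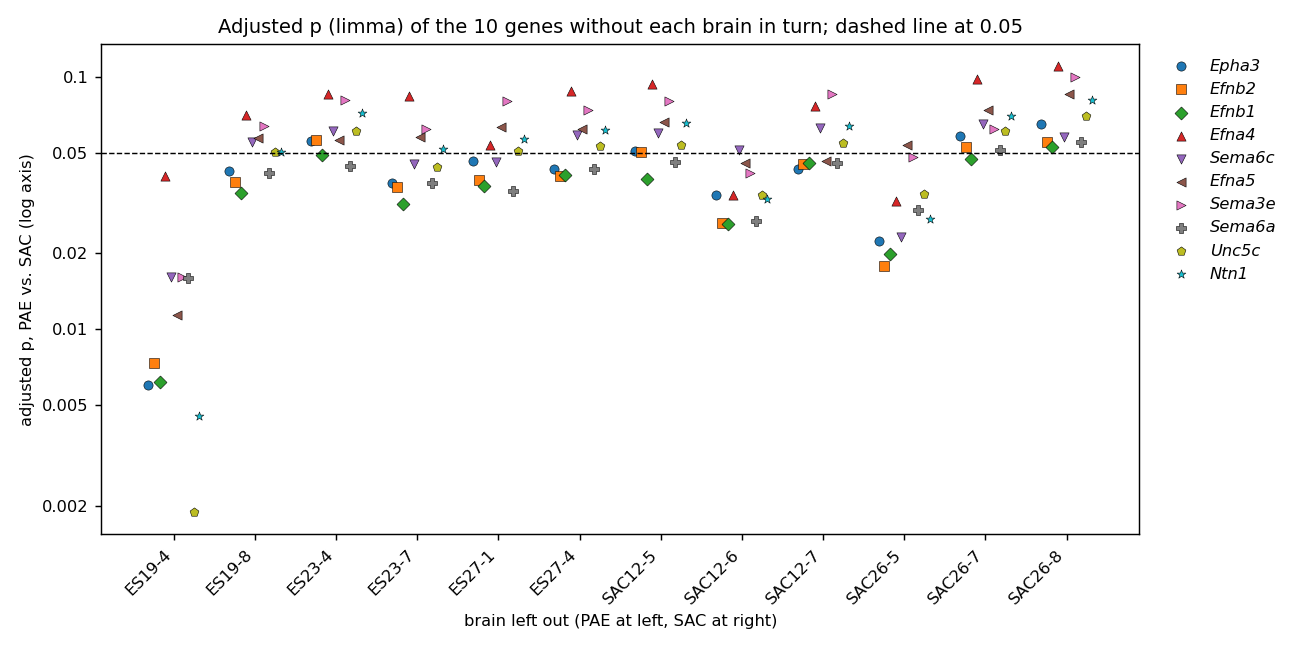
Adjusted p of the 10 genes for PAE vs. SAC (limma, log axis) with the brain on the horizontal axis left out, PAE brains at left, SAC brains at right, dashed line at 0.05. Without ES19-4 all 10 genes lie below the line, with Unc5c lowest at 0.0019, and without SAC26-8 all 10 lie above it.

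Within the sexes, no gene of the 59 passed the adjustment. In males 16 had an unadjusted p under 0.05 (5 up, 11 down), against 19.3% of all genes, and 4 of all 12346 genes (0.0324%) passed the adjustment. The smallest p values in males were those of Unc5c (1.54 ± 0.123 FPKM in male PAE and 2.41 ± 0.257 FPKM in male SAC, log2 fold change -0.43, adjusted p = 0.120 by limma), Sema3e (-0.35) and Ntn1 (-0.51). In females 9 had an unadjusted p under 0.05 (5 up, 4 down), against 14.3% of all genes, and none of all genes passed the adjustment (0%). The smallest were those of Sema6a (8.74 ± 0.632 FPKM in female PAE and 11.7 ± 0.286 FPKM in female SAC, log2 fold change -0.39, adjusted p = 0.308 by limma), Efnb1 (0.40) and Plxna2 (0.38). Efnb1 had nearly the same difference in both sexes, 0.39 in males and 0.40 in females (difference -0.01 ± 0.162). No gene reached 1.5-fold with an unadjusted p under 0.05 in either sex on the log2(FPKM + 1) scale, which 1.3% of all genes passed in males and 1.04% in females. From mean FPKM, Epha10, Ntn1 and Unc5c did in males, against 2.77% of all genes, and none did in females, against 2.02%.

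None of the 59 genes had an interaction of sex and treatment at an unadjusted p under 0.05, against 3.95% of all genes, and 1 of all genes passed the adjustment (0.0081%). None passed 1.5-fold with an unadjusted p under 0.05 in the interaction, against 0.632% of all genes. The smallest p of this interaction, 0.0541 by limma, was that of Sema6b, a transmembrane semaphorin, with a log2 fold change of 0.37 in males and -0.33 in females. It averaged 13.4 ± 2.91 FPKM in male PAE and 10.4 ± 3.64 FPKM in male SAC, and 9.09 ± 1.17 FPKM in female PAE and 11.8 ± 2.72 FPKM in female SAC. Nrp2 (difference of the log2 fold changes, males minus females, -0.26 ± 0.127) and Sema4b (-0.23 ± 0.112) followed, both with negative values in males and positive values in females. Between females and males, averaged over treatments, none of the 59 genes had an unadjusted p under 0.05, against 2.73% of all genes, and 4 of all genes passed the adjustment (0.0324%). None passed 1.5-fold at that p between the sexes, against 0.154% of all genes. The smallest p values were those of Epha6 (log2 difference female minus male -0.13 ± 0.0625), Ephb6, a receptor without kinase activity (-0.10 ± 0.0487), and Sema6a (-0.11 ± 0.065).

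The transcript table held 142 transcripts of 63 of the 64 genes (none of Sema3b), of which 99 were tested. None passed an adjusted p under 0.05, nor did any of the 20937 transcripts tested in all (0%), and 21 had an unadjusted p under 0.05 against 15.1% of all. The lowest adjusted p, 0.0892, was that of Efnb1-201, the 1 model of Efnb1, and of Efnb2-201, which made up 97.2% of the summed level of the Efnb2 models. Sema6a was listed as 3 models, and all had negative log2 fold changes (-0.41 for Sema6a-202, -0.21 for Sema6a-201 and -0.40 for Sema6a-206). For Sema6c, by contrast, the 4 tested models had values between -0.29 and 0.24, none at an unadjusted p under 0.05. Ntn1-201 was listed at 0 in ES27-4 and SAC26-5, where Ntn1-202 had 4.49 and 5.74 FPKM, so the gene's level stood under another model in these brains. Unc5a-202 averaged 5.10 ± 3.11 FPKM in PAE and 2.35 ± 0.499 FPKM in SAC (log2 fold change 0.74, unadjusted p = 0.0208 by limma), carried by ES23-4 (8.99 FPKM) and ES27-1 (9.19 FPKM), while Unc5a as a gene did not differ at that level.

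Other genes of the guidance pathway were taken from 4 lists. Of 28 further cues and receptors tested, 3 were upregulated and 4 downregulated, beside the 9.56% of all genes. The smallest p values were those of Ntng1, a membrane-bound netrin relative of thalamocortical axons (6.97 ± 1.48 FPKM in PAE and 10.7 ± 1.22 FPKM in SAC, log2 fold change -0.56, adjusted p = 0.0203), Cxcr4, the receptor of the chemokine Cxcl12 (12.3 ± 1.67 FPKM in PAE and 9.10 ± 0.920 FPKM in SAC, 0.40, adjusted p = 0.0207), and Dscaml1, an adhesion molecule (0.28, adjusted p = 0.0222). Of 9 axonal adhesion molecules 2 were downregulated, Cntn1 (11.8 ± 2.22 FPKM in PAE and 17.0 ± 1.86 FPKM in SAC, -0.50, adjusted p = 0.0203) and Alcam (-0.27, adjusted p = 0.0253), and 3 more, Ncam1 among them, were lower at an unadjusted p under 0.05. Of 33 intracellular effectors, which carry the signal of the receptors to the cytoskeleton, 1 was upregulated (Gipc1, 0.16) and 2 were downregulated (Dock1, -0.20, and Farp1, -0.13). None of 7 growth cone and axon growth genes passed, and Gap43 and Map1b were lower and Tubb3 was higher at an unadjusted p under 0.05. The medians of the 4 lists were -0.03, -0.14, -0.03 and 0.04 in this order, beside 0.0052 over all genes.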

How the data were processed

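mRNA of 12 E18 whole brains was measured after poly-A selection, 6 PAE and 6 SAC, with groups and sex from the sample labels. Libraries were made with a stranded Kapa kit. The authors used FastQC and cutadapt on the reads, HISAT2 for alignment, and StringTie and Ballgown for abundance, in versions that the sources used here do not give. The deposited values are FPKM per gene and per transcript, which the authors normalized for length and depth. As FPKM hold no counts, depth and counting error are unknown. The paper names the build GRCm28, and positions of 58 of the 64 genes equal those of GENCODE M21 on GRCm38. Exons of 15 of the 64 overlap those of another gene model, none of which is in the gene table. Of each table, 1 line had been emptied for this work. Only transcripts of protein-coding genes are listed, and the level of a gene is not the sum of its listed transcripts.

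The values were taken as log2(FPKM + 1). Genes whose mean over the 12 libraries reached 1 FPKM entered the test, which was limma 3.58.1 in R 4.3.3 (variance trend on, Benjamini-Hochberg adjustment over all genes tested). The PAE vs. SAC fit had no covariate. Males, females, their interaction and sex came from 1 fit of the 4 groups. The fit was tested on simulated data with independent noise for each gene and brain. These data held no structure by name prefix or regional make-up, so the simulation cannot say how the fit behaves under either. Promoters came from RefSeq (GRCm38.p6), and 10 of the 64 genes had no match there.

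The members and lists were chosen with earlier results of these data known. Members were named if they had an adjusted p under 0.05, passed the study's 1.5-fold threshold, were among the 10 smallest p for PAE vs. SAC or the 3 smallest in the other comparisons, were the 2 highest or the lowest of a family, or lay under 1 FPKM. Other lists had up to 3 genes named. All other genes named with values were chosen after their values were seen. Alternatives were a pseudocount of 0.1, no filter, median-of-ratios scaling, quantile normalization, sex or the Hox level as a covariate, means of name prefixes, a test without moderation, leaving out ES19-4 and SAC12-6, and leaving out each brain in turn. The fold from mean FPKM was added after seeing the data.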

Additional observations from a re-analysis of the deposited data

Results flagged for a closer look

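Of 128 groups of 6 brains (64 genes in PAE and in SAC), 7 held a brain far from the other 5 of its group, that is, with a gap to its neighbour of more than the share of the range that a Dixon test at 95% allows. Chance marks about 5% of groups. In PAE the brain ES23-7 was the one apart in 3 of the 7, with 19.6 FPKM of Efna2 (22.2 to 23.5 in the others), 26.8 FPKM of Plxnb2 (24.0 to 24.8) and 10.4 FPKM of Sema6d (4.90 to 5.64). In the transcript table Sema6d-203 had 8.86 FPKM and Sema6d-205 had 0.45 FPKM in ES23-7. Also in PAE, ES27-1 had 3.31 FPKM of Sema4f (3.96 to 4.35 in the others) and ES19-4 had 2.45 FPKM of Unc5c (1.40 to 1.65). In SAC, SAC26-8 had 13.9 FPKM of Sema6a (11.03 to 11.98 in the others) and SAC12-7 had 3.34 FPKM of Ntn4 (2.89 to 3.03). Of these genes only Unc5c and Sema6a were among the 10 that passed for PAE vs. SAC.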

How the results depend on the processing

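The count of genes that passed for PAE vs. SAC, 10 of 59, (9.56% of all genes), was also 10 with a pseudocount of 0.1 (9.16%), with no filter (8.66%) and with median-of-ratios scaling (9.46%), 9 with quantile normalization (9.04%), 8 with sex as a covariate (7.35%), 7 without moderation (5.52%) and 13 without ES19-4 and SAC12-6 (17.2%). It was 0 with the Hox level as a covariate and 0 with means of name prefixes, and 0 to 18 with 1 brain left out. In females 0 to 3 passed with 1 brain left out (3 without ES19-4, against 3.82% of all genes), and in males 0 in each case. The count with no overlap was 4 with all brains and 10 without ES19-4 and SAC12-6. Past 1.5-fold there were 0 on the log2(FPKM + 1) scale and 1 from mean FPKM. Signs changed only in genes that did not pass. Without ES19-4 and SAC12-6 the log2 fold change was -0.035 for Sema6b, 0.026 for Epha7 and 0.012 for Epha5. With the Hox level as a covariate it was -0.010 for Robo1, -0.0063 for Ephb4, -0.036 for Ephb6, -0.011 for Robo2, -0.018 for Slit3 and -0.028 for Unc5d, and with quantile normalization -0.0048 for Robo2. With 1 brain left out it ranged from -0.069 to 0.0058 for Sema4f, -0.076 to 0.109 for Sema6b, -0.098 to 0.0049 for Nrp2, -0.178 to 0.010 for Sema6d, -0.045 to 0.013 for Epha7, -0.089 to 0.085 for Sema3a, -0.097 to 0.042 for Epha5, -0.011 to 0.058 for Sema4b, -0.031 to 0.037 for Robo2, -0.0091 to 0.066 for Slit3 and -0.023 to 0.036 for Unc5d. The cause was not tested. No paired analysis was possible because each name prefix holds brains of 1 treatment only and the labels give PAE and SAC no shared replicate numbers. With FPKM alone, the error of low values cannot be given.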
